A study of Mus musculus with 2 samples.

Results

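The 10 genes described here, Trem2, Gpnmb, Cd9, Cd63, Lpl, Fabp5, Fabp4, Spp1, Mmp12 and Atp6v0d2, are widely used as markers of lipid-associated macrophages. They were taken by gene symbol from the 32285 genes listed in each deposited count matrix, and each symbol matched 1 gene. They were followed in 2 single-cell RNA libraries of mouse liver. The GS-KO library came from 1 tumour-bearing Glulf/f mouse given AAV8-Cre, and the control library from 1 tumour-bearing Glulf/f mouse given AAV8-GFP, both collected 7 weeks after the virus. Glul encodes glutamine synthetase (GS), floxed in both mice, and AAV8 is a viral vector that reaches mainly hepatocytes. The series title gives the tumours as β-catenin-mutant hepatocellular carcinoma, and the age and sex of the mice are not given in the sources used here. Cells came from the supernatant of the first spin after collagenase perfusion and were enriched on magnetic beads for F4/80, a macrophage surface protein, and then for live cells. With 1 mouse in each group no difference can be set against a spread between mice, and every interval below covers counting error only.

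Lipid-associated macrophages are macrophages that gather where lipid and dying cells accumulate, in fatty tissue, in fibrotic or steatotic liver and in tumours. TREM2 is a lipid-sensing receptor that signals through the adaptor TYROBP and is required for much of the programme in mouse models. The other genes encode a lipase and fatty acid carriers, proteins of lysosomes and their membranes, and secreted proteins that act on matrix and neighbouring cells. In mouse liver, CLEC4F is a lectin found on Kupffer cells, the resident macrophages, and macrophages newly derived from monocytes lack it or gain it late.

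Barcodes needed 500 UMIs (distinct transcripts counted), 200 genes and no more than 20% of UMIs from mitochondrial genes, which left 655 GS-KO and 3251 control cells after removal of 7 and 24 doublets. Median depth was 4104 UMIs per GS-KO and 7320 UMIs per control cell. Glul, the floxed gene, stood at 36.4 CPM (UMIs per 1000000 UMIs of the group) in 18 GS-KO and 3026 CPM in 445 control hepatocyte-like cells, and at 249 and 256 CPM in macrophage-like cells. The libraries shared 1 barcode, and 0 barcodes among kept cells. Cells were clustered together on other genes: the 10 genes and 107 genes of related pathways took no part in forming or naming clusters. Of 17 clusters, 4 were named macrophage-like, and they held 76 GS-KO and 1129 control cells. A cluster was called Clec4f-positive where at least 50% of its cells had a Clec4f UMI after each cell was thinned to 1000 UMIs, and Clec4f-low otherwise.

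The 4 macrophage-like clusters were as follows. Cluster 2 was Clec4f-low, with 20 GS-KO and 186 control cells, a Clec4f share of 4.85% and Syngr1, Pf4 and Cd93 among its leading genes. Cluster 12 was Clec4f-positive, with 23 GS-KO and 405 control cells, a Clec4f share of 92.8% and Cxcl9, Cxcl16 and Colec12 among its leading genes. Cluster 10 was Clec4f-low, with 17 GS-KO and 284 control cells and Cd209f, Fcna and Spic among its leading genes, but its Clec4f share of 43.4% lay close to the limit. Cluster 5 was Clec4f-positive, with 16 GS-KO and 254 control cells, a Clec4f share of 98.1% and Folr2, Marco, Cd163 and Timd4 among its leading genes, which mark long-resident Kupffer cells. All 4 clusters carried C1q, a complement protein that macrophages make, at 19101 to 24677 CPM over its 3 genes in GS-KO cells and 18152 to 22977 CPM in control cells. Of the macrophage markers, Marco was at 0 in the GS-KO cells of cluster 2. Haemoglobin RNA stood at 23.3 CPM in the GS-KO cells of cluster 2 and 3798 CPM in its control cells, and a broad list of hepatocyte genes at 1153 CPM in GS-KO and 1215 CPM in control cells. The 12 hepatocyte markers used for naming summed to 105 CPM in GS-KO cells of cluster 2, with 6 of them at 0, and to 289 CPM in its control cells. The 5 platelet markers summed to 1705 CPM in the GS-KO cells of cluster 2, where all but Pf4 were at 0, and to 295 CPM in its control cells. The part of these RNAs in the results on cluster 2 was not tested.

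Among the macrophage-like clusters, most of the 10 genes were highest in clusters 2 and 12, which lie on opposite sides of the Clec4f limit. In the GS-KO library these clusters held 34.7% and 51.5% of all Trem2 UMIs and 84.5% and 15.5% of all Gpnmb UMIs. In the control library they held 30.3% and 57.2% of Trem2 UMIs and 61.9% and 33.2% of Gpnmb UMIs. In the control library all 10 genes had at least 20 UMIs over the clusters compared, the minimum for a gene to count as measured. Of these, 9 were at least 1.5-fold higher in cluster 2 than in cluster 10, both Clec4f-low, where 7.96% of all measured genes were, and 10 were at least 1.5-fold higher in cluster 12 than in cluster 5, both Clec4f-positive, where 8.96% were. The median log2 ratio over the 10 genes was 3.37 for cluster 2 over cluster 10 and 3.42 for cluster 12 over cluster 5, and over all genes -0.22 and -0.085. In these control comparisons Gpnmb reached the minimum only through cluster 2 in the first, and Spp1 and Atp6v0d2 only through cluster 12 in the second. The control counts and medians include these genes, whose calls lean on that minimum. In the GS-KO library several genes reached the minimum only through the cluster where they were high, so no count is given. There cluster 2 was higher than cluster 10 in CPM for each gene but Lpl, with Gpnmb, Spp1, Mmp12 and Atp6v0d2 at 0 UMIs in cluster 10. Cluster 12 was higher than cluster 5 for each gene but Spp1, at 0 UMIs in both, and Fabp4, at 15.7 CPM in cluster 12 and 20.5 CPM in cluster 5, from 7 and 4 UMIs.

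**Figure D1:**
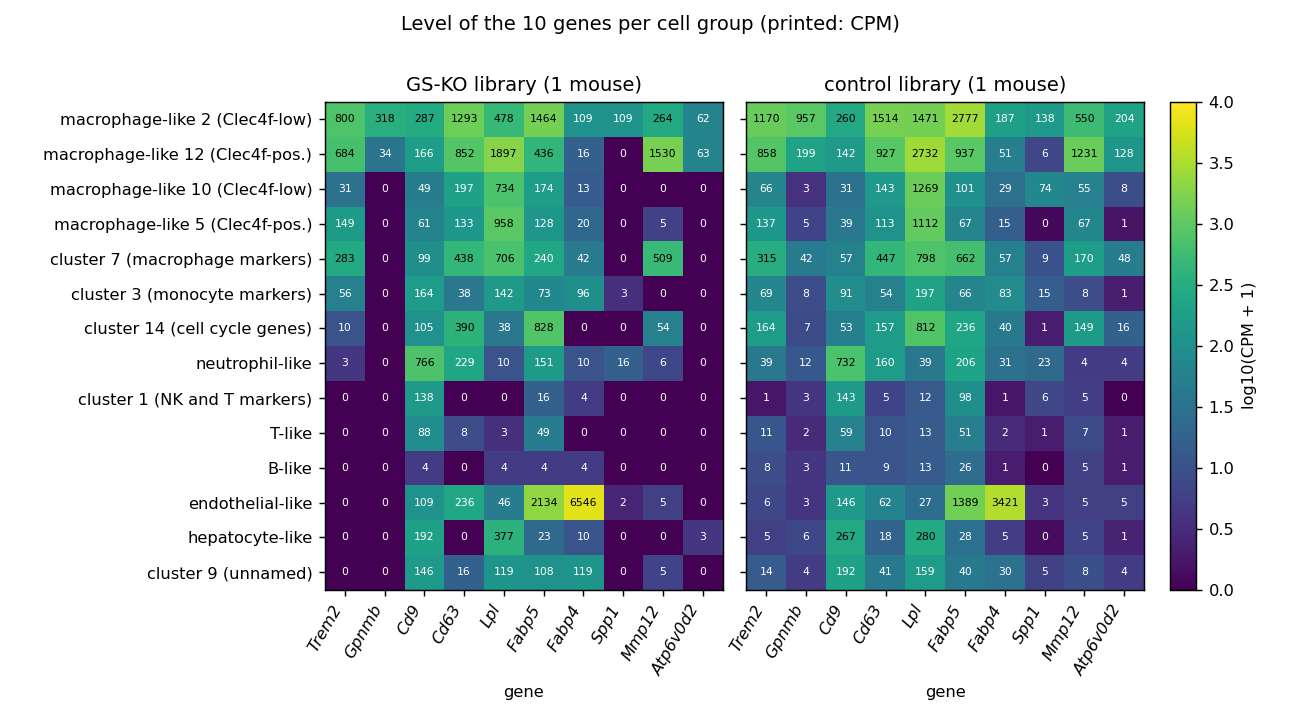
Level of each gene (columns) in each cell group (rows), in the GS-KO library at left and the control library at right; colour is log10(CPM + 1) and the printed value is CPM. Clusters 2 and 12 stand out from the other macrophage-like clusters in both libraries, and Fabp4 is highest in endothelial-like cells, at 6546 CPM in GS-KO and 3421 CPM in control cells.

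Trem2, the lipid-sensing receptor (chr17:48346401-48354147, plus strand, as are all positions below on GRCm38), was at 799.96 CPM (95% interval 694 to 917) in the GS-KO cells of cluster 2, against 1169.8 CPM (95% interval 1134 to 1207) in its control cells. In cluster 12 it was at 684 CPM (95% interval 609.9 to 766) in GS-KO cells, against 858 CPM (95% interval 839 to 878) in control cells. Cluster 5 had 149 CPM in GS-KO and 137 CPM in control cells, and cluster 10 had 31.3 CPM in GS-KO and 65.7 CPM in control cells. The order was cluster 2, then 12, 5 and 10 in both libraries, and in the GS-KO library the intervals of clusters 2 and 12 overlapped. After thinning, 60% (36.1 to 80.9) of GS-KO and 54.8% (47.4 to 62.1) of control cells of cluster 2 had a Trem2 UMI, against 95% and 86% at full depth. B-like cells, which should lack the gene, had a thinned share of 0% (0 to 3.08) in GS-KO and 0.877% (0.24 to 2.23) in control cells, with a median depth of 3823 and 3669 UMIs against 15258 and 16422 UMIs in cluster 2. The thinned share in cluster 2 was above that of B-like cells in both libraries.

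Gpnmb, a glycoprotein of lysosomes and the cell surface (chr6:49036546-49070929, plus strand), separated the clusters more sharply. Cluster 2 had 318 CPM (95% interval 253 to 395) in GS-KO cells, against 957 CPM (95% interval 924 to 990.2) in control cells, and cluster 12 had 33.5 CPM (95% interval 18.8 to 55.3) in GS-KO cells, against 199 CPM (95% interval 189.9 to 209) in control cells. In clusters 10 and 5 the GS-KO cells had 0 UMIs and the control cells 2.76 and 5.43 CPM. The 0 UMIs allow up to 13.4 CPM in cluster 10 and 15.4 CPM in cluster 5 (3 counts). After thinning, 15% (3.21 to 37.9) of GS-KO and 26.3% (20.2 to 33.3) of control cells of cluster 2 had a Gpnmb UMI, against 0% and 0.877% of B-like cells. At full depth 1 cell held 35.4% of its GS-KO UMIs in cluster 2.

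The start regions of 3 genes are shown because all 3 were high in clusters 2 and 12 and share a short sequence. Each line gives bases 170 before to 30 after a start site that RefSeq lists on GRCm38.p6, plus strand, 5′ to 3′, at chr17:48346231-48346430 for Trem2, chr6:49036348-49036547 for Gpnmb and chr9:7347204-7347403 for the second of 2 Mmp12 start sites. Capitals mark matches, on either strand, to TGANTCA, a pattern that takes in the site bound by AP-1 factors, to CATGTG, an E-box, or to TATAAA, the letters of a TATA box.
Trem2: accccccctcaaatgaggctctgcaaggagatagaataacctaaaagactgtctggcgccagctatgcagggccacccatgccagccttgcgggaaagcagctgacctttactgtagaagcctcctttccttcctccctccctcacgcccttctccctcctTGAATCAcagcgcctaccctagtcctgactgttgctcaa
Gpnmb: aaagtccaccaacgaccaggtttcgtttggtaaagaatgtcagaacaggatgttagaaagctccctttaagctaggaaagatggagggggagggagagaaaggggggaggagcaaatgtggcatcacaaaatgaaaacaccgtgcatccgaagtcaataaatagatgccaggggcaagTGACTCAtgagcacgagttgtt
Mmp12: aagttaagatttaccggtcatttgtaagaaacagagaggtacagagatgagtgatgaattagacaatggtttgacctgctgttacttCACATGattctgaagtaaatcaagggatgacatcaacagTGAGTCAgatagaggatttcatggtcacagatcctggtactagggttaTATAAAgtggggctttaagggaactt
The TGANTCA match began at base -9 from the start site in Trem2, at base 9 after it in Gpnmb and at base -44 in Mmp12, where CATGTG also began at base -83 and TATAAA at base 5. The AP-1 site reads TGACTCA, or TGAGTCA on the other strand, which are the letters in Gpnmb and Mmp12, while Trem2 has TGAATCA, outside that form. RefSeq windows of 300 bases were held for 6 of the 10 genes, 8 windows in all. Of 32817 such windows across the mouse genome, 7.81% held TGANTCA, 14.2% CATGTG, 13.6% TATAAA and 7.15% CACGTG. That last pattern is an E-box among those bound by MiT/TFE factors, and no window of these genes held it. The other E-box searched, CATGTG, was held by Cd9 and Mmp12, and whether these factors bind it there was not tested. The DR1 pattern, a repeat bound by nuclear receptors such as PPARs, was in 0.0396% of all windows and in none of the 8. Spp1 held TATAAA at base -211 and Cd9 CATGTG at base -38, and the windows of Cd63, of the first Mmp12 start site and of the second Spp1 start site had no match. The only Cd63 window, chr10:128909095-128909394, lies inside the gene, whose listed start is base 128900989, so that start was not searched. A match is a stretch of letters and says nothing of binding.

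Cd63 (chr10:128900989-128912822, plus strand) and Cd9 (chr6:125460266-125494791, minus strand) encode tetraspanins, small membrane proteins of late endosomes and of the cell surface. Cd63 in cluster 2 stood at 1293 CPM in GS-KO cells, against 1514 CPM in control cells, and in cluster 12 at 852 CPM in GS-KO cells, against 927 CPM in control cells. Clusters 10 and 5 had 197 and 133 CPM in GS-KO cells and 143 and 113 CPM in control cells. After thinning, 55% (31.5 to 76.9) of GS-KO and 64% (56.6 to 70.9) of control cells of cluster 2 had a Cd63 UMI, and 60.9% (38.5 to 80.3) and 43.5% (38.6 to 48.4) in cluster 12, against 0% and 1.75% of B-like cells.
Cd9 was also highest in cluster 2 and next in cluster 12, at lower contrast, with 287 CPM in GS-KO and 259.8 CPM in control cells of cluster 2 and 166 CPM in GS-KO and 142 CPM in control cells of cluster 12. Clusters 5 and 10 had 61.4 and 49.2 CPM in GS-KO cells and 39.2 and 31.1 CPM in control cells. Much of it lay outside macrophages: macrophage-like cells held 19.6% of its UMIs in the GS-KO and 25.1% in the control library. The 12 platelet-like GS-KO cells had 9067 CPM, and no comparison was made for them because the control library held 1 such cell. Neutrophil-like cells had 766 CPM in GS-KO and 732 CPM in control cells, and hepatocyte-like cells had 192 CPM in GS-KO and 267 CPM in control cells.

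Lpl, the lipase that splits triglycerides of lipoproteins (chr8:68880491-68907448, plus strand), was high in all 4 clusters and highest in cluster 12. Cluster 12 had 1897 CPM (95% interval 1771 to 2029) in GS-KO cells, against 2732 CPM (95% interval 2697 to 2767) in control cells. Cluster 5 had 958 CPM in GS-KO and 1112 CPM in control cells, cluster 10 734 CPM in GS-KO and 1269 CPM in control cells and cluster 2 478 CPM in GS-KO and 1471 CPM in control cells. In GS-KO cells cluster 2 was thus the lowest of the 4, and its ratio to cluster 10 was 0.651 (0.511 to 0.827), while in control cells it was 1.16 (1.11 to 1.21). Hepatocyte-like cells had 377 CPM in GS-KO and 279.8 CPM in control cells, and 1 GS-KO hepatocyte-like cell held 78.1% of the UMIs there.

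Fabp5 (chr3:10012548-10016607, plus strand) and Fabp4 (chr3:10204088-10208576, minus strand) encode carriers of fatty acids within the cell. Among the macrophage-like clusters Fabp5 was highest in cluster 2, with 1464 CPM (95% interval 1319.9 to 1619.5) in GS-KO cells, against 2777 CPM (95% interval 2722 to 2834) in control cells. Cluster 12 had 436 CPM in GS-KO and 937 CPM in control cells, cluster 10 174 CPM in GS-KO and 101 CPM in control cells and cluster 5 128 CPM in GS-KO and 67.4 CPM in control cells. A few cells carried much of it: 1 GS-KO cell held 33.2% of its UMIs in cluster 2, and the median cell there had 538 CPM in the GS-KO and 632 CPM in the control library. The mouse genome also holds a processed copy, Fabp5l2, and processed copies of Cd9 and Cd63, and how reads shared with them were counted is not given in the sources used here.
Fabp4 was highest in endothelial-like cells in both libraries. Endothelial-like cells had 6546 CPM (95% interval 6347 to 6749) in GS-KO, against 3421 CPM (95% interval 3277 to 3569) in control cells, and macrophage-like cells held 0.988% of the gene's UMIs in the GS-KO and 33.9% in the control library. In cluster 2 it stood at 109 CPM in GS-KO cells, against 187 CPM in control cells, with 1 cell holding 57.1% of the GS-KO and 20.6% of the control UMIs. In the other macrophage-like clusters it lay between 13.4 and 20.5 CPM in GS-KO and between 15 and 51.1 CPM in control cells. Fabp5 was also high in endothelial-like cells, at 2134 CPM in GS-KO cells, against 1389 CPM in control cells.

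Spp1 (chr5:104435118-104441050, plus strand) encodes osteopontin, a secreted ligand of integrins and CD44, and Mmp12 (chr9:7344381-7369499, plus strand) the macrophage elastase. Spp1 was rare. In the GS-KO library 1 cell of cluster 2 carried 28 UMIs, and no other macrophage-like cell had any, which gave 109 CPM in cluster 2, while in the control library 40 of 186 cells of cluster 2 carried 138 CPM. Control cells of cluster 10 had 73.7 CPM, of which 93.5% lay in 1 cell, and those of clusters 12 and 5 had 6.07 and 0.209 CPM. A difference between libraries in the Clec4f-positive cells was not detectable at this depth, since their 0 GS-KO UMIs allow up to 4.67 CPM, above the control level of 3.99 CPM.
Mmp12 was highest in cluster 12, with 1529.8 CPM (95% interval 1417 to 1649) in GS-KO cells, against 1231 CPM (95% interval 1208 to 1254) in control cells. Cluster 2 had 264 CPM in GS-KO and 549.6 CPM in control cells, cluster 5 5.12 CPM in GS-KO and 66.6 CPM in control cells, and cluster 10 had 0 UMIs in GS-KO cells and 54.7 CPM in control cells. After thinning, 47.8% (26.8 to 69.4) of GS-KO and 38.3% (33.5 to 43.2) of control cells of cluster 12 had an Mmp12 UMI, and 10% (1.23 to 31.7) and 19.4% (13.9 to 25.8) in cluster 2, against 0% and 0.658% of B-like cells.

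Atp6v0d2 (chr4:19876841-19922605, minus strand) encodes a subunit of the V-ATPase, the proton pump that acidifies lysosomes, in a form known from osteoclasts and macrophages. It stood at 62.1 CPM in GS-KO cells, against 204 CPM in control cells of cluster 2, and at 62.6 CPM in GS-KO cells, against 128 CPM in control cells of cluster 12. In clusters 10 and 5 the GS-KO cells had 0 UMIs and the control cells 8.27 and 0.626 CPM. In the GS-KO cells of cluster 12, 1 cell held 82.1% of its 28 UMIs.

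**Figure D2:**
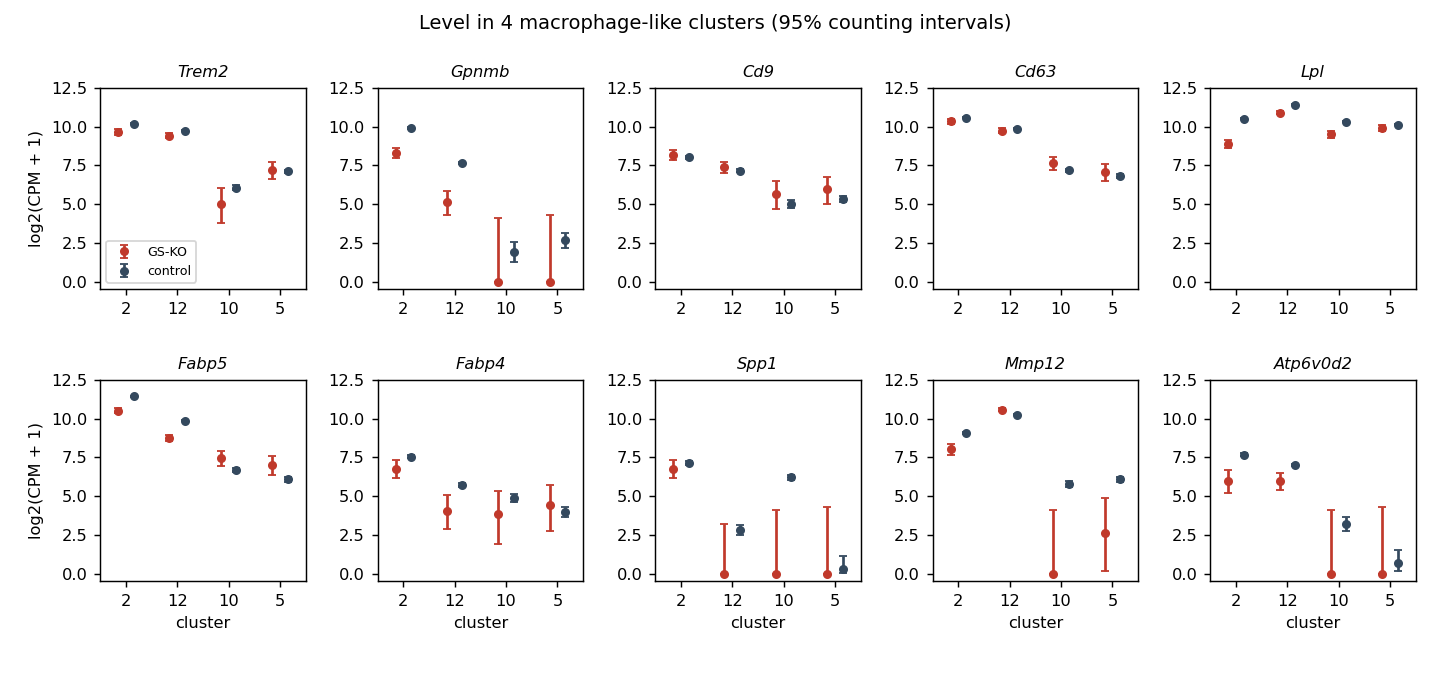
Level of each gene in the macrophage-like clusters 2, 12, 10 and 5 (x axis), as log2(CPM + 1) (y axis), GS-KO left of control; points are summed UMIs of 1 mouse and bars are 95% counting intervals. Trem2 is at 31.3 CPM in GS-KO and 65.7 CPM in control cells of cluster 10, while Lpl is at 478 CPM or more in every cluster of both libraries.

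The comparison of Clec4f-low with Clec4f-positive macrophages asked whether the programme follows the Kupffer cell lectin. Gpnmb, Spp1, Fabp5 and Fabp4 were at least 1.5-fold higher in the Clec4f-low cells of both libraries, and Lpl and Mmp12 at least 1.5-fold lower. In the control library these were 4 higher and 2 lower of 10 genes, where 7.01% and 6.39% of all genes passed. In the GS-KO library Gpnmb, Spp1 and Fabp4 reached the minimum count only through the Clec4f-low cells, so no count is given. A single GS-KO cell held all Spp1 UMIs of the macrophage-like cells, and a single cell held most of the Fabp4 UMIs of cluster 2. Trem2 was at 443 CPM in Clec4f-low GS-KO cells, against 573 CPM in Clec4f-low control cells, and at 521 and 603 CPM in Clec4f-positive GS-KO and control cells, which is a ratio of 0.849 (0.712 to 1.01) in GS-KO and 0.95 (0.916 to 0.987) in control cells. Gpnmb differed by 7.3-fold (4.18 to 13.6) in GS-KO and 3.38-fold (3.19 to 3.58) in control cells, and Mmp12 had ratios of 0.133 and 0.345. The median log2 ratio over the 10 genes was 0.35 in GS-KO and 0.32 in control cells, near 0 beside the gap between clusters on each side of the limit. It depended on cluster 10: counted as Clec4f-positive, an alternative added after the data were seen, it moved the medians to 1.33 and 1.59. Trem2 then had log2 ratios of 1.02 in GS-KO and 1.28 in control cells, so its direction in this comparison depended on that choice.

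Cluster 2 and cluster 12, which share the programme, differed in its parts. In cluster 2, 6 genes were at least 1.5-fold higher than in cluster 12 and 2 lower in the GS-KO library, where 13.7% and 18.1% of all genes passed. Of these 6, Gpnmb, Spp1 and Fabp4 reached the minimum count only through cluster 2, and 1 cell held all 28 Spp1 UMIs. No conclusion is therefore drawn from the GS-KO count. In the control library 7 genes were higher in cluster 2 and 2 lower, where 6.49% and 11.4% of all genes passed. Gpnmb was 9.49-fold (5.43 to 17.7) higher in cluster 2 in GS-KO and 4.8-fold (4.53 to 5.1) higher in control cells, and Fabp5 3.36-fold (2.82 to 4.01) and 2.96-fold (2.88 to 3.05) higher. Lpl had a ratio of 0.252 in GS-KO and 0.538 in control cells, and Mmp12 0.173 and 0.447, so these 2 were higher in cluster 12. Trem2 stayed within 1.5-fold between the 2 clusters, at 1.17 in GS-KO and 1.36 in control cells, and Cd63 passed that limit narrowly, at 1.52 and 1.63.

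The comparison of the libraries asked what the genes did in macrophages of a liver with Glul deleted by Cre. In Clec4f-low macrophages 7 of 10 genes were at least 1.5-fold lower in GS-KO cells and 0 higher, where 23% and 12.1% of all genes passed. In Clec4f-positive macrophages 5 were lower and 0 higher, where 22.1% and 10.7% of all genes passed. Spp1 was among the lower genes of the Clec4f-positive cells by its 0 GS-KO UMIs alone, and with such genes set at the bound that 3 counts give, 4 of 10 were lower, where 17.3% of all genes were. The median log2 ratio over the 10 genes was -0.74 in Clec4f-low and -0.65 in Clec4f-positive macrophages, or -0.32 with Spp1 at that bound, against -0.10 and -0.088 over all genes. The 2 mice, their dissociation and their libraries cannot be told apart from the effect of Cre. RNA of hepatocytes also differed: the 12 hepatocyte markers summed to 114 CPM in GS-KO and 324 CPM in control cells of the Clec4f-low group, and to 177 and 373 CPM in the Clec4f-positive group, with 3 markers at 0 in the GS-KO cells of each. Their part in the result was not tested.

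Gpnmb and Atp6v0d2 had the lowest ratios in Clec4f-low cells. Gpnmb was lower in GS-KO cells of both groups, with a CPM ratio of 0.387 (0.307 to 0.481) in Clec4f-low and 0.179 (0.0999 to 0.296) in Clec4f-positive macrophages, or 0.11 there without the cell of each library with most Gpnmb UMIs. Within cluster 2 its ratio was 0.333 (0.264 to 0.414), and within cluster 12 0.168 (0.0941 to 0.279). Atp6v0d2 had a ratio of 0.339 (0.193 to 0.554) in Clec4f-low cells and 0.525 (0.347 to 0.763) in Clec4f-positive cells, which became 0.185 and 0.102 without the cell of each library with most of its UMIs. Lpl was lower in both groups, with 0.438 (0.388 to 0.493) in Clec4f-low cells, past the limit, and 0.747 (0.701 to 0.794) in Clec4f-positive cells, short of it. Within cluster 2 Lpl had a ratio of 0.325 (0.269 to 0.388), and within cluster 10, where the other genes were low, 0.578 (0.492 to 0.676).
Fabp5 had a ratio of 0.65 (0.588 to 0.717) in Clec4f-low and 0.545 (0.474 to 0.623) in Clec4f-positive macrophages. It changed with how cells were weighed: as a mean over cells the log2 ratio in Clec4f-low cells was 0.21, and with cells thinned to 1000 UMIs that in Clec4f-positive cells was 0.013. Clusters 10 and 5, where Fabp5 was low, had ratios of 1.73 (1.21 to 2.4) and 1.9 (1.21 to 2.85), and that of cluster 10 was 1.06 without the top cell of each library. Fabp4 had ratios of 0.637 (0.43 to 0.912) in Clec4f-low cells, or 0.388 without the top cells, and 0.447 (0.222 to 0.807) in Clec4f-positive cells. Spp1 in Clec4f-low cells, from 1 GS-KO cell, had 0.565 (0.373 to 0.823).

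Trem2, Cd63 and Cd9 stayed within 1.5-fold in both groups by summed UMIs. The ratio of Trem2 was 0.773 (0.671 to 0.887) in Clec4f-low and 0.865 (0.773 to 0.965) in Clec4f-positive macrophages, that of Cd63 1.01 (0.912 to 1.13) and 0.992 (0.896 to 1.1), and that of Cd9 1.3 (1.03 to 1.62) and 1.27 (1.01 to 1.58). Cluster 2, where Trem2 was highest, held 20 of 37 GS-KO but 186 of 470 control Clec4f-low cells. Within clusters 2 and 10 Trem2 was lower in GS-KO cells, in cluster 10 by more than 1.5-fold from few UMIs. The part of this mix in the pooled Trem2 ratio was not tested. Cd9 passed the limit as a mean over cells, with log2 ratios of 0.92 in Clec4f-low and 0.86 in Clec4f-positive cells, and with cells thinned, with 0.85 and 0.86. The direction of Trem2 in Clec4f-low cells turned under the same settings, to 0.017 and 0.30. Mmp12 moved in opposite directions, with 0.501 (0.388 to 0.638) in Clec4f-low cells and 1.3 (1.2 to 1.41) in Clec4f-positive cells. In the Clec4f-positive cells 1 GS-KO cell held 30.7% of its UMIs, and without the top cell of each library the ratio was 0.971, and 0.325 in Clec4f-low cells. In the clusters with low Mmp12, the GS-KO cells of cluster 5 had 1 UMI and a ratio of 0.0769 (0.00194 to 0.431), and those of cluster 10, with 0 UMIs, were at least 4.07-fold lower than control cells, taking 3 counts for the 0. In Clec4f-low cells the direction turned, with a log2 ratio of 0.44 when each cell was placed by its own Clec4f UMIs and of 1.29 with a mitochondrial limit of 30%.

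By cluster, 6 of 10 genes were at least 1.5-fold lower in the GS-KO cells of cluster 2, where 24.2% of all genes were, and 5 of 10 in cluster 12, where 23.5% were. In cluster 10, 6 of 9 measured genes were lower and 2 higher, where 29.1% and 13% of all genes were. Spp1 counted as lower there, with 0 GS-KO UMIs and nearly all control UMIs in a single cell. In cluster 5, 2 of 8 were lower and 2 higher, where 28.8% and 16% were. Gpnmb was below the minimum in cluster 10, and Spp1 and Atp6v0d2 in cluster 5. The median log2 ratios were -0.85, -0.78, -1.06 and 0.18 in clusters 2, 12, 10 and 5. With genes at 0 set at their bound, 4 genes were lower in cluster 12, 5 in cluster 10 and 1 in cluster 5, where 18.2%, 22.7% and 20% of all genes were, and the medians of clusters 12 and 10 were -0.43 and -0.79. In the endothelial-like cells 4 of 5 measured genes were at least 1.5-fold higher in GS-KO cells, where 12.1% of all genes were. They were Cd63, with a ratio of 3.78 (2.64 to 5.53), Fabp4, with 1.91 (1.82 to 2.02), Fabp5, with 1.54 (1.41 to 1.68), and Lpl, with 1.69 (0.898 to 3.28), whose interval spans 1 and whose ratio was 0.955 without the top cells.

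**Figure D3:**
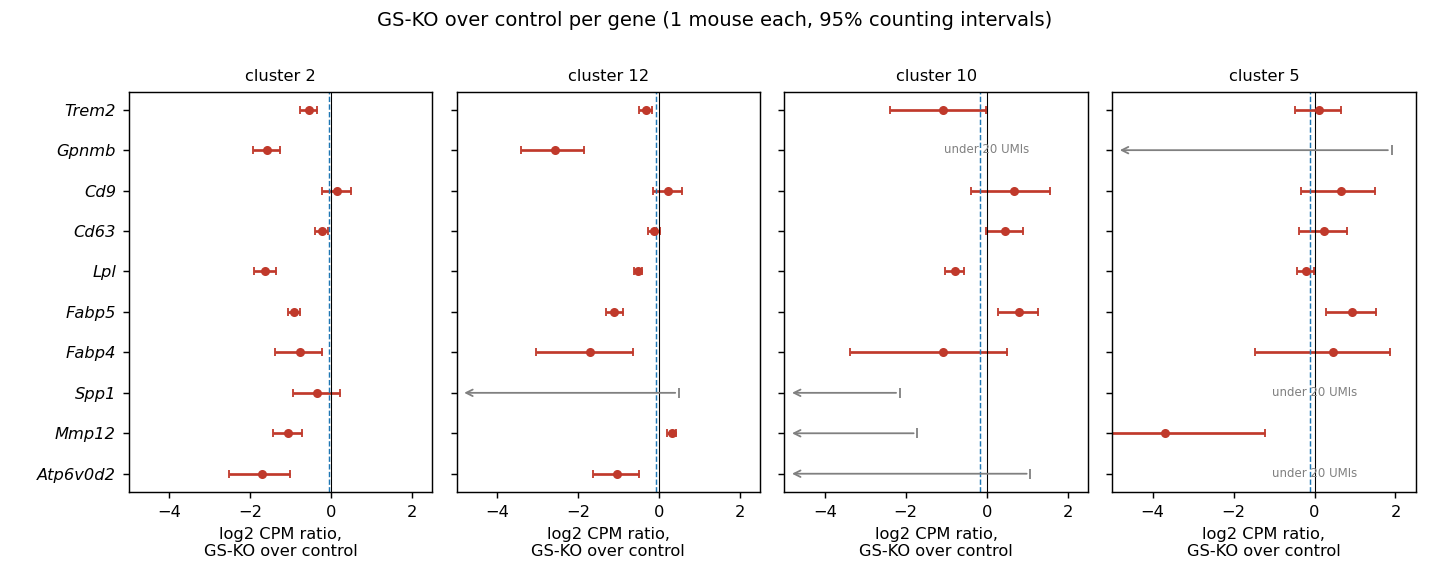
Log2 CPM ratio of GS-KO over control for each gene (rows) in clusters 2, 12, 10 and 5 (panels), with 95% counting intervals; the dashed line is the median of all genes, and a grey arrow runs left from the upper bound of a gene with 0 GS-KO UMIs. Gpnmb, Fabp5 and Atp6v0d2 lie left of 0 in clusters 2 and 12, with Gpnmb at a ratio of 0.333 and 0.168.

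The genes were also counted cell by cell, which gives each cell the same weight. After thinning to 1000 UMIs, at least 3 of the 10 genes were detected in 8 of 20 cells, or 40% (19.1 to 63.9), of the GS-KO cells of cluster 2, against 103 of 186 cells, or 55.4% (47.9 to 62.7), of its control cells. In cluster 12 they were detected in 13 of 23 cells, or 56.5% (34.5 to 76.8), in GS-KO cells, against 210 of 405 cells, or 51.9% (46.9 to 56.8), in control cells, and the intervals overlapped in both clusters. Cluster 10 had 7.14% in GS-KO and 3.65% in control cells, cluster 5 had 15.4% and 1.58%, and B-like cells had 0% and 0.219%. Single cells weighed heavily among the few GS-KO macrophages. One cell of cluster 12 held 15.8% of all UMIs of the 10 genes in the Clec4f-positive group with 3.36% of the group's UMIs, and had 9733 CPM of Mmp12. One cell of cluster 2 held 13.9% of those in the Clec4f-low group and had 7979.6 CPM of Fabp5. Without these cells, an alternative added after the data were seen, the median log2 ratio was -0.93 in Clec4f-low and -0.77 in Clec4f-positive macrophages.

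**Figure D4:**
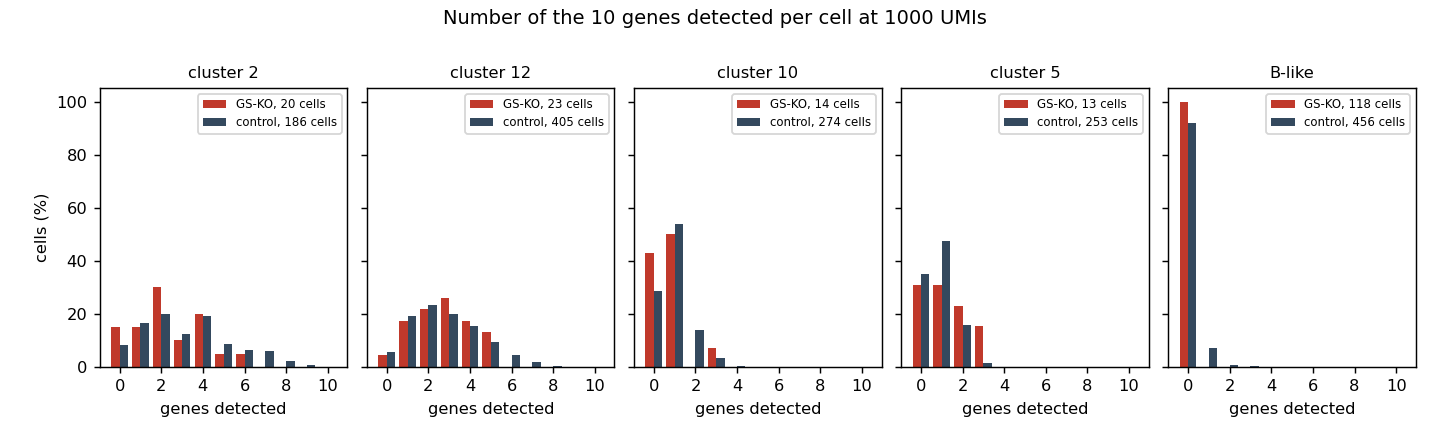
Share of cells (y axis, %) by how many of the 10 genes had a UMI after thinning to 1000 UMIs (x axis), in clusters 2, 12, 10 and 5 and in B-like cells, GS-KO left of control. At least 3 genes were found in 40% of GS-KO and 55.4% of control cells of cluster 2.

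The genes were also compared from cell to cell, and pairs differed in how far the libraries were alike. Over the cells of cluster 2 thinned to 5000 UMIs, the Spearman rho of Gpnmb with Fabp5 was 0.77 in 17 GS-KO cells and 0.68 in 175 control cells, and that of Fabp5 with Cd63 was 0.60 and 0.64. Cd9 with Cd63 had -0.31 and 0.54, Trem2 with Cd9 -0.075 and 0.44, and Gpnmb with Lpl 0.67 and 0.25. Trem2 and Lpl had a rho of 0.28 and -0.068 there. In cluster 12 Cd63 with Mmp12 had a rho of 0.68 in 21 GS-KO and 0.51 in 393 control cells. These cells share a library and a mouse, so the values are a description of each. Across 15 clusters of the control library, by Pearson correlation of log2(CPM + 10), the pattern of Trem2 was most like that of Cxcl14 (r = 0.96), Matk (0.96) and Mmp12 (0.94). Gpnmb was closest to Gm34425 (0.99) and Syngr1 (0.96), Lpl to Itgb5 (0.98), Cd63 to Trem2 (0.93) and the V-ATPase genes Atp6v1g1 and Atp6v0c (both 0.91), and Fabp4 to Emilin1 (0.92). Fabp5, Spp1 and Cd9 were matched less closely, at most 0.842 for Fabp5 with Shisa9.

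Other genes of the programme were read from lists of related function. The first list held 19 further markers of lipid-associated and scar macrophages. In the control library, cluster 12 over cluster 5 gave 13 of 18 measured genes at least 1.5-fold higher and 0 lower, where 8.96% of all genes were higher. Cluster 2 over cluster 10 gave 9 of 16 higher and 1 lower, where 7.96% of all genes were higher. Shares of all genes lower are not given for these comparisons. No count is given for the GS-KO library, where a gene could reach the minimum only through the cluster where it was high. Lgals3, the lectin galectin-3, was 2.68-fold and 2.78-fold higher in cluster 12 than in cluster 5 in GS-KO and control cells. Lysosomal genes, which include cathepsins and their MiT/TFE regulators, were counted in the higher direction only. The V-ATPase and the TREM2 receptor and signal genes were counted in the same way. These counts do not show genes that were lower. In control cells 6 of 19 were higher for cluster 12 and 8 of 19 for cluster 2. The other V-ATPase subunits had 5 of 15 higher in cluster 12 and 4 of 15 in cluster 2. The TREM2 receptor and signal genes had 0 of 8 higher in both. In the GS-KO library the median log2 ratio of cluster 2 over cluster 10 was 0.49 for the further markers. It was 0.47 for the lysosomal genes and 0.41 for the V-ATPase genes. For the TREM2 receptor and signal genes it was 0.054, and for the lipid uptake, storage and efflux genes -0.011, against -0.10 over all genes. These medians hold only genes that met the minimum, such as 12 of 19 further markers and 17 of 20 lysosomal genes. Some may have met it only through cluster 2, so no conclusion is drawn from the medians. Control values of the lipid uptake, storage and efflux list are not given for these comparisons. Tyrobp, the adaptor of TREM2, had control ratios of 1.01 in cluster 12 over 5 and 1.05 in cluster 2 over 10.

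Between libraries, counts of these lists were taken in clusters 2 and 12, where the medians of all genes were -0.042 and -0.076. In cluster 2, 24.2% of all genes were at least 1.5-fold lower in GS-KO cells and 17% higher. The lipid uptake, storage and efflux genes had 6 lower and 1 higher of 15 measured there, the further markers 6 lower and 3 higher of 16, the lysosomal genes 2 lower and 0 higher of 19 and the V-ATPase genes 2 lower and 1 higher of 15. The median log2 ratios of these lists were -0.55, -0.46, -0.17 and -0.015, and the shares lower in the last 2 lists were below that of all genes. In cluster 12, 23.5% of all genes were lower and 11.9% higher, and the lists had, in the same order, 1 lower and 2 higher of 15, 4 lower and 4 higher of 18, 3 lower and 0 higher of 19 and 1 lower and 0 higher of 15, with medians of 0.087, -0.063, -0.017 and -0.22. With genes at 0 set at their bound, 3 of the further markers were lower in cluster 12, where 18.2% of all genes were, with a median of -0.022. Ctsd and Psap, which act in lysosomal breakdown, had ratios of 0.588 and 0.553 in cluster 2 and 0.657 and 0.756 in cluster 12. Apoe, the main apolipoprotein of macrophages, had 1.09 and 1.13. Some markers were higher: Ccl6, a chemokine, had ratios of 2.59 and 1.66 in clusters 2 and 12, and Cd207, the lectin langerin, 2.56 in cluster 2. Ms4a7, a membrane protein of macrophages, had a ratio of 0.149 in cluster 12. With listed genes counted, Ms4a7 was among the leading genes of cluster 2 and Cd207 among those of cluster 12. The ratios of these genes in those clusters are not given here. Among partners, the tetraspanin Cd81 had 1.07 and 1.73, the integrin subunit Itgb5, part of a receptor for Spp1, 0.589 and 0.752, the lipase activator Apoc2 2.08 and 1.49, the fatty acid carrier Fabp7 0.244 and 1.06, and Timp2, an inhibitor of metalloproteases, 1.24 and 0.941.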

How the data were processed

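Single-cell RNA was measured in 2 liver libraries, 1 mouse each. The authors deposited raw UMI counts per gene and barcode, made with Cell Ranger on mm10 per the submitters' processing notes; the matrix header carries version 3.1.0. The labels name 3′ V2 chemistry and in 1 place single-nucleus RNA, and which applies was not settled here. No barcode had under 500 UMIs. The GS-KO matrix held 1366 barcodes and 8805330 UMIs, and the control matrix 5074 and 64770011.

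Doublets were removed per library with Scrublet (expected rate 5%). Counts were scaled to 10000 per cell and log-transformed, and 2000 variable genes, chosen without the 10 genes and the 107 listed ones, gave 30 principal components, 15 neighbours and Leiden clusters at resolution 1 (seed 1). No batch correction was applied, since library and group coincide. A cluster was named, as "-like", with at least 3 markers of a class, more than of any other, each at least 2-fold above all other cells (10 CPM added) and in at least 20% of its cells. It stayed unnamed where 2 classes tied, where another class had more markers among its top 10 genes by fold, or where its cells were shallow for their library with no marker of the class among those 10. The last condition left out cluster 7, with 9 macrophage markers and a depth 0.222 times the library median. The leading genes used in naming also left out the listed genes, a choice made after the data were seen. UMIs were summed per group and library to CPM with exact Poisson 95% intervals; ratios carry conditional binomial 95% intervals and log2 ratios a prior count of 0.5. Calls use a 1.5-fold limit, with no test. Thinned shares carry Clopper-Pearson intervals and left out 56 GS-KO and 197 control cells under 1000 UMIs. Among listed genes, those named were the 2 of each list with most UMIs in macrophage-like cells and the 2 with the interval bound farthest from 1. Genes like a member were the 3 of highest correlation among 11752 with at least 100 control UMIs, over clusters with at least 30 control cells. Cell groups with under 10 cells in a library were not compared. The genes, lists and comparisons were chosen with earlier results of these data known. Gene positions and copies came from GENCODE M21 and start regions from RefSeq, both on GRCm38. Clustering used scanpy 1.11.5 with igraph 0.11.9, anndata 0.12.19 and scikit-learn 1.9.0, in Python 3.11.15, and statistics used scipy 1.17.1, pandas 2.3.3 and numpy 2.4.6. Figures were drawn with matplotlib 3.10.9. The summing and ratio steps were tested on simulated counts.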

Additional observations from a re-analysis of the deposited data

Results flagged for a closer look

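Several library differences pointed opposite ways in 2 cell groups, and none of these contrasts was tested. For Mmp12 the GS-KO over control log2 ratio in Clec4f-positive macrophages exceeded that in Clec4f-low macrophages by 1.38, and that in cluster 12 exceeded that in cluster 5 by 3.96, where GS-KO cells of cluster 5 held 1 Mmp12 UMI. Without the cell of each library with most Mmp12 UMIs, the ratios above 1 became 0.971 in Clec4f-positive macrophages and 0.939 in cluster 12, so the directions were no longer opposite. For Fabp5, cluster 12 minus cluster 5 gave -2.03 and cluster 2 minus cluster 10 gave -1.71, with the gene lower in GS-KO cells of the high clusters and higher in those of the low ones. Without the top cell of each library the Fabp5 ratio in cluster 10 came close to 1. Macrophage-like minus endothelial-like cells (cluster 4) gave -1.25 for Fabp5 and -1.63 for Fabp4, both lower in GS-KO macrophages and higher in GS-KO endothelial-like cells.

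Barcodes over the mitochondrial limit of 20%, 694 in the GS-KO and 1799 in the control library, entered no comparison. Per 1000000 non-mitochondrial UMIs they carried Fabp4 at 249.99 in GS-KO, against 60.8 in control barcodes, and Cd9 at 414, against 199. Trem2 stood at 9.52 in GS-KO and 58.7 in control barcodes there.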

How the results depend on the processing

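No paired analysis was possible because each group is 1 mouse. Over 16 alternatives, the median log2 ratio of GS-KO over control kept its sign, from -1.35 to -0.26 in Clec4f-low and from -0.83 to -0.39 in Clec4f-positive macrophages; a mitochondrial limit of 10% left no Clec4f-low cluster named and gave it no value. Genes at least 1.5-fold lower in Clec4f-low cells numbered 4 both with cells split by their own Clec4f UMIs and as a mean over cells, and in Clec4f-positive cells 3 both with cells thinned and with a mitochondrial limit of 30%. The Clec4f-low over Clec4f-positive median in GS-KO cells became 1.33 at resolution 0.5, 0.99 with the 10 genes kept for clustering, 1.41 with cells split and 1.33 with cluster 10 counted as Clec4f-positive. In control cells these were 1.65, 1.45, 1.00 and 1.59, and 0.50 without doublet removal. At resolution 0.5 and with the 10 genes kept the Clec4f-low group was 1 cluster; the cause of the other shifts was not tested. Single genes past 1.5-fold turned as follows: Mmp12 GS-KO over control in Clec4f-low cells to 1.29 (limit of 30%) and 0.44 (cells split), Fabp5 to 0.21 (mean over cells) and in Clec4f-positive cells to 0.013 (thinned), and Clec4f-low over Clec4f-positive in GS-KO cells for Fabp4 to -0.51 (limit of 30%) and for Mmp12 to 0.086 (cells split). Genes within 1.5-fold turned too. Clec4f-low over Clec4f-positive in GS-KO cells, Atp6v0d2 reached 3.66 (cells split), 2.49 (limit of 30%) and 1.00 (without its top cell), and kept its sign in 6 of 13 alternatives. For Trem2 this contrast reached 1.02 in GS-KO and 1.34 in control cells (resolution 0.5), keeping its sign in 8 and 9 of 15. GS-KO over control, Trem2 in Clec4f-low cells reached 0.30 (thinned), Cd9 there -0.076 (the 10 genes kept for clustering), and Mmp12 in Clec4f-positive cells -0.10 (without the GS-KO cell with most UMIs of the 10 genes). Cd63, near 0 in both groups, kept its sign in 9 of 15 and 9 of 16. No macrophage-like cluster was led by cell cycle genes, so leaving such clusters out changed nothing. Dropping the minimum count could not change the GS-KO over control medians, since all 10 genes met it in both groups. Adding cluster 7 to the Clec4f-positive cells, another alternative, left the GS-KO over control values of Clec4f-low cells as they were. The 76 GS-KO macrophages limit every GS-KO value.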

Other observations

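The genes were also present outside the 4 macrophage-like clusters. Cluster 7 carried macrophage markers at a median of 1482 UMIs in GS-KO and 1552 UMIs in control cells and stayed unnamed. It had Trem2 at 283 CPM in GS-KO and 315 CPM in control cells, Cd63 at 438 CPM in GS-KO and 447 CPM in control cells, Mmp12 at 509 CPM in GS-KO and 170.1 CPM in control cells and Fabp5 at 240.2 CPM in GS-KO and 662 CPM in control cells. At 1000 UMIs, at least 3 of the genes were found in 3 of 17 cells, or 17.6% (3.8 to 43.4), in GS-KO and 46 of 183 cells, or 25.1% (19 to 32.1), in control cells of this cluster.

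Cluster 14, led by cell cycle genes, differed in macrophage markers between the 2 libraries. Its C1q level was 674 CPM in 11 GS-KO and 16900.4 CPM in 72 control cells, and its Clec4f level 3.2 and 3244 CPM. Lpl stood at 38.3 CPM in GS-KO cells, against 812 CPM in control cells of it, Trem2 at 9.59 CPM in GS-KO cells, against 164 CPM in control cells, and Fabp5 at 828 CPM in GS-KO cells, against 236 CPM in control cells. Cluster 3, which tied between both kinds of monocyte markers, had Trem2 at 55.6 CPM in GS-KO and 69.2 CPM in control cells and Gpnmb at 0 UMIs in GS-KO and 7.94 CPM in control cells.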
